A study of Mus musculus with 8 samples.

Results

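This account follows 39 interferon response genes through 8 hippocampal RNA libraries from adult male mice, 4 exposed to bisphenol A (BPA) through their mothers and 4 controls. The genes are the rows of the deposited count table whose symbol is on a list of interferon response genes, and all 39 were found among its 24527 rows. All mice were wild-type C57BL/6J males aged 20 weeks. Mothers of the BPA group ate a low-phytoestrogen diet with 50 mg of BPA per kg while pregnant and nursing, and mothers of the control group ate that diet with 0 mg. From weaning on postnatal day 21 every pup ate the control diet, so both groups had the same diet in adulthood. BPA, a building block of polycarbonate plastic, can bind oestrogen receptors.

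Interferons are secreted when cells sense foreign or misplaced nucleic acid. They bind receptors on neighbouring cells, and the receptors' kinases activate STAT proteins, which enter the nucleus with IRF9 and switch on interferon-stimulated genes through a short DNA motif, the interferon-stimulated response element. In the brain, microglia, endothelial cells, astrocytes and neurons all carry part of this response at a low resting level, and its level in the absence of infection differs between cell types.

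The starts of several of these genes carry the element, as these stretches of 160 bases before the RefSeq start show. They are given 5′ to 3′ on the gene's strand, from the RefSeq annotation of GRCm38.p6 (the assembly named mm10), with matches to the core of the element in capitals. The core searched was GAAA and GAAA with any 2 bases between them, which reads TTTC and TTTC on the other strand, and neighbouring matches overlap where the capitals run on. The 6 were taken from the genes described gene by gene. Other genes so described with a match in this stretch, such as B2m, Bst2 and Gbp2, are not shown. Gbp3 has a further start that is not shown either.
Ifit1, chr19:34640729-34640888, plus strand: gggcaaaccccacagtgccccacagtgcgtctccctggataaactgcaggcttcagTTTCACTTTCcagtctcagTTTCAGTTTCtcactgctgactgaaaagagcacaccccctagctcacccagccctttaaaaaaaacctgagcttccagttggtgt
Ifit3, chr19:34583369-34583528, plus strand: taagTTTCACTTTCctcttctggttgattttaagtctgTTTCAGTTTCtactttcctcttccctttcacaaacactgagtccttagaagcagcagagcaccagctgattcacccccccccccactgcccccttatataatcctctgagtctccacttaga
Isg15, chr4:156200819-156200978, minus strand: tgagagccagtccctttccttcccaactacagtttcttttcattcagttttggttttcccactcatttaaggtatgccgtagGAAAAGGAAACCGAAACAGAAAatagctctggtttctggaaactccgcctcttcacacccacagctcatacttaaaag
Oas1a, chr5:120907526-120907685, minus strand: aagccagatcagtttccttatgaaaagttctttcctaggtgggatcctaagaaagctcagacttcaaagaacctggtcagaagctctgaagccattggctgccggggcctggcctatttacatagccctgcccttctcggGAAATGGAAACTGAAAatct
Rsad2, chr12:26456453-26456612, minus strand: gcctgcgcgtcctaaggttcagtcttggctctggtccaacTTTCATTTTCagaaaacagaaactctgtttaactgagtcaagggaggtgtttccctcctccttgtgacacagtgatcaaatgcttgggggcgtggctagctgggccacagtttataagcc
Gbp3, chr3:142559884-142560043, plus strand: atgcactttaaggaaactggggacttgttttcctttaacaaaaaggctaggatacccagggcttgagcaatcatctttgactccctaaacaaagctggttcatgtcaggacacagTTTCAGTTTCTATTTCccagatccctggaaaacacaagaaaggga

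A promoter window, from 250 bases before to 50 after the start, was found by symbol for 31 of the 39 genes. It held the core of the element on either strand in 17 of the 31, or 54.8%. The same letters were in the windows of 3.69% of the 11785 tested genes with a window and in 3.44% of all 32851 windows. The 17 were B2m, Bst2, Ddx58, Eif2ak2, Gbp2, Gbp3, Gbp7, Ifih1, Ifit1, Ifit3, Igtp, Irgm1, Isg15, Oas1a, Rsad2, Stat2 and Trim30a. The gamma-activated site, TTCNNNGAA, which reads the same on both strands, was in the windows of 8 of the 31 genes (25.8%) against 8.24% of tested genes. These are matches of letters and do not show that a factor was bound in these samples.

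Library totals were 27135071 to 40793192 reads in controls and 43119986 to 54013884 reads in BPA mice, so that every BPA library was deeper than every control library and depth and exposure cannot be told apart by group. Levels are in CPM, the usual measure of a gene's read count relative to its library total, scaled by TMM, a normalization that compares each library's typical gene with the others, and group values are mean ± SD over 4 libraries. Differences are log2 fold changes of BPA over control, given as estimate ± SE in parentheses after the levels; values of single libraries are in the order of replicates 1 to 4. The 10 markers of hippocampal neurons were all well detected, with a summed level of 1238 to 1372 CPM over the 8 libraries. Choroid plexus markers reached 3045 CPM in control 2 and 809 CPM in BPA 3, against 163 to 351 CPM in the other 6 libraries. Bulk RNA cannot tell fewer cells of a type from less RNA per cell.

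No interferon response gene differed between the groups past the threshold. After removal of genes with too few reads, 37 of the 39 genes could be tested, and 0 of the 37 passed edgeR's quasi-likelihood test at an adjusted p of 0.05 (Benjamini-Hochberg over 15434 genes; lowest adjusted p 0.955), where the share of all tested genes called was 0%. DESeq2 called 0 of the 37 (lowest adjusted p 0.795; 0.0337% of all genes with a p) and limma-voom also 0 (0% of all tested genes). At an unadjusted p under 0.05, edgeR gave 4 genes higher in BPA mice, where 2.22% of all tested genes were, and 0 lower, where 2.3% were. The 4 were Ifit3, Oas1a, Irf7 and Ifi44. DESeq2 and limma-voom each gave 3 members at an unadjusted p under 0.05, against 3.02% and 4.56% of all genes. For 23 of the 37 genes the fold had a 95% interval that stayed within 1.5-fold up or down, as it did for 13184 of the 15434 tested genes.

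Estimates leaned upward in BPA mice. The list was chosen with earlier results of these data known, so no test was run over it. The log2 fold change was above 0 in 28 of the 37 genes, against 50% of all tested genes, with a median of 0.075 against 0.000049 over all tested genes. It ran from -0.23 for Bst2, which was at 0.0086 without control 2, to 0.83 for Oas1a. By role, with no test of the differences between roles, the median was 0.21 for antiviral effectors (6 of 10 tested members with a positive estimate), 0.15 for regulators and other induced genes (8 of 11) and 0.13 for transcription factors (4 of 4). It was 0.034 for interferon-inducible GTPases (5 of 5), 0.015 for nucleic acid sensors (2 of 3) and 0.013 for antigen presentation genes (3 of 4). Without the library BPA 4, the medians in the same order were -0.032 (4 of 10 positive), 0.0046, 0.14, -0.038, -0.068 and 0.0019.

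The lean was uneven across libraries, and its median moved with several of them. It was 0.0024 without BPA 4, 0.034 without control 3 and 0.16 without control 2. BPA 4 was the library most often highest, so a lower median without it was to be foreseen. BPA 4 held the highest CPM of the 8 libraries for 21 of the 37 genes, against 12.1% of all tested genes, and was highest or second highest for 28. Control 2 was highest for 11, BPA 3 for 4 (Ifit3, Irf9, H2-K1 and H2-D1), BPA 1 for Irf1, and control 1, control 3, control 4 and BPA 2 for 0. Of all tested genes, 15.2% were highest in control 2, 12.5% in BPA 3, 9.21% in BPA 1 and 10.4% to 17.6% in each of the rest. Control 3 was the lowest library for 13 genes and BPA 4 for 0, against 12.9% and 11.2% of all tested genes. With scaling by library totals alone, BPA 4 and control 2 were each highest for 16 genes, where BPA 4 was highest for 8.81% and control 2 for 24.6% of all tested genes. Relative to each gene's own mean over the 8 libraries, the median gene stood at 0.23 on the log2 scale in BPA 4 and at 0.16 in control 2, whereas it stood at 0.047 in BPA 3, -0.039 in BPA 1 and -0.056 in BPA 2. Controls 1, 3 and 4 stood at -0.048, -0.17 and -0.099. The median over all tested genes stayed between -0.0025 and 0.0028 in each library.

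**Figure D1:**
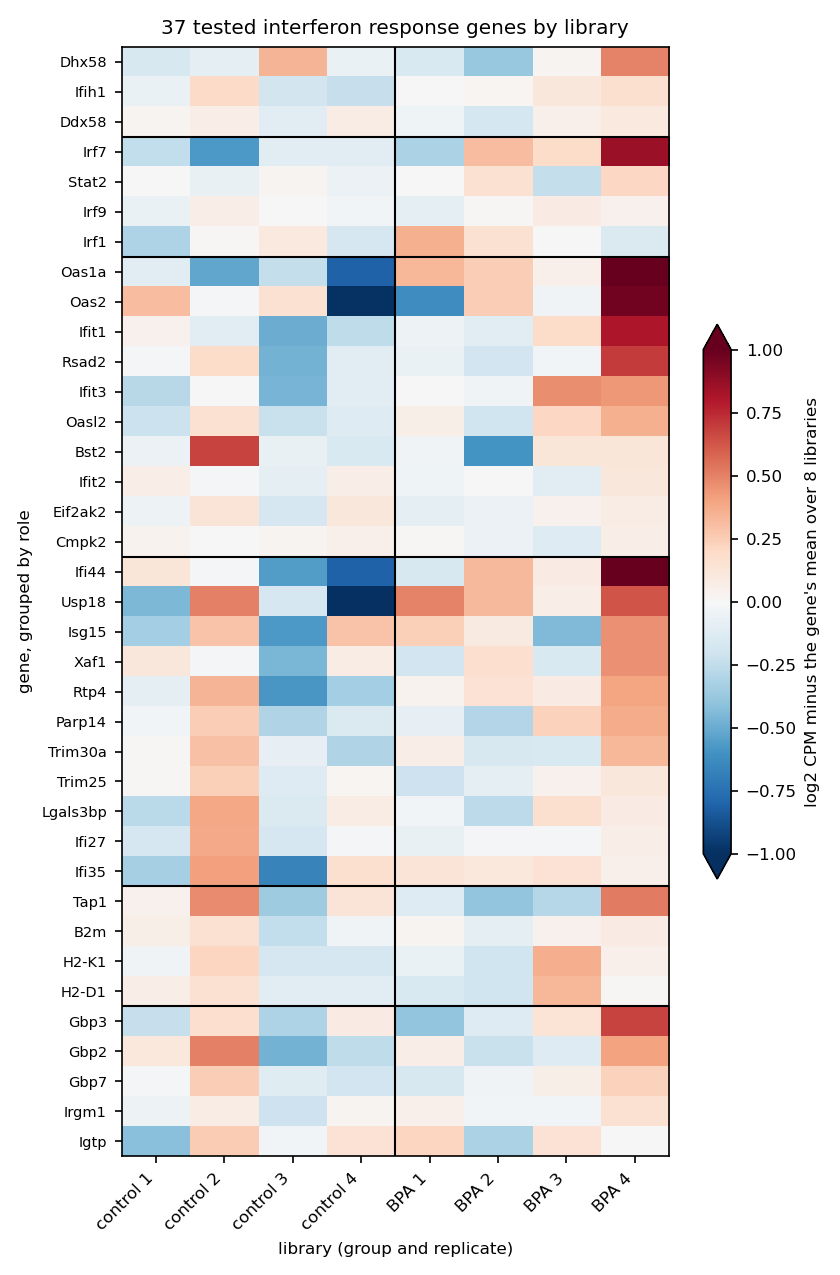
Log2 CPM of each of the 37 tested genes minus that gene's mean over the 8 libraries, with genes grouped by role and libraries in columns; the colour scale ends at 1 in both directions. The BPA 4 column is raised for most antiviral effectors and regulators, control 2 is raised for Bst2, Usp18, Tap1 and Gbp2, and H2-K1 and H2-D1 are highest in BPA 3.

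**Figure D2:**
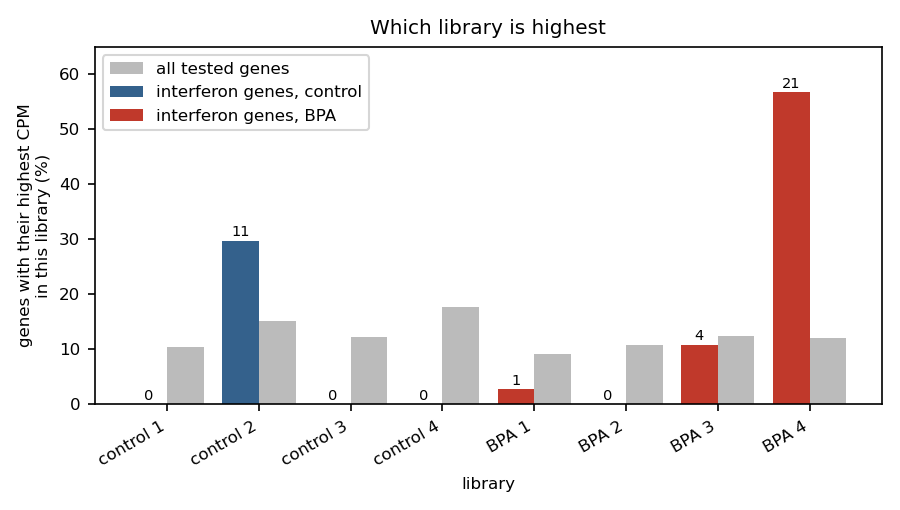
Percent of the 37 tested interferon genes (coloured bars, with the number of genes above each) and of all 15434 tested genes (grey bars) that have their highest CPM in each library. BPA 4 holds 21 of the 37 genes and control 2 holds 11, while the grey bars lie between 9.21% and 17.6%.

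The share of a gene's summed CPM carried by its highest library would be 12.5% if all 8 libraries were equal. Over the 37 genes its median was 16.1%, against 13.9% over all tested genes, and it ran from 13.1% for Cmpk2 to 24.1% for Oas1a. It was above 20% for 5 genes, against 4.15% of all tested genes, and for all 5 the library was BPA 4: Oas1a (24.1%), Ifi44 (23.7%), Oas2 (22.7%), Irf7 (21.8%) and Ifit1 (21.2%). In 7 of the 37 genes BPA 4 was at least 1.4 times the next highest library, against 0.162% of all tested genes; these were the 5 above with Rsad2 and Gbp3. The ratio of 1.4 was chosen after the values were seen. Low counts widen such shares by sampling alone. The 37 genes had a median level of 4.32 CPM, against 15.9 CPM over all tested genes, so their shares are not compared at like levels. Oas1a had 96 reads and Oas2 had 134 over the 8 libraries, while Ifit1 had 801 and Gbp3 had 1385.

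Among antiviral effectors, the IFIT proteins bind foreign RNA and block its translation. Ifit1 (mm10, chromosome 19, 34640871 to 34650009) was at 2.45, 2.18, 1.68 and 1.98 CPM in controls 1 to 4 and at 2.28, 2.18, 2.70 and 4.15 CPM in BPA 1 to 4. BPA 4 was highest, at 1.54 times the next library, BPA 3, which also lay above every control, and BPA 1 and BPA 2 lay inside the control range. The log2 fold change was 0.43 ± 0.21 (SE; edgeR adjusted p 0.955), or 0.19 without BPA 4.

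Ifit3 (chromosome 19, 34583531 to 34588731) was at 8.80, 10.6, 7.75 and 9.87 CPM in the controls and at 10.6, 10.4, 14.7 and 14.4 CPM in the BPA mice. Here BPA 3 and BPA 4 were both high, and BPA 1 and BPA 2 lay beside the highest control. The log2 fold change was 0.44 ± 0.13 (edgeR adjusted p 0.955, unadjusted p 0.0059), the smallest p among the 37 genes, and 0.36 without BPA 4. The transcripts of Ifit3 and its neighbour Ifit3b match at 97.8% over 1700 bases, so the split of reads between the pair is uncertain. Ifit3b had 7.91 ± 1.36 CPM in the controls and 10.5 ± 2.52 CPM in the BPA mice (0.41 ± 0.16) and was highest in BPA 4 and BPA 3. Ifit2, from the same cluster, showed little of this: it was at 12.9, 12.2, 11.5 and 12.8 CPM in the controls and 11.9, 12.3, 11.4 and 13.3 CPM in the BPA mice, with a fold of 0.99 (95% interval 0.893 to 1.10).

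The oligoadenylate synthases make a messenger that activates RNase L. Oas1a (chromosome 5, 120896256 to 120907521) was at 0.247, 0.187, 0.226 and 0.152 CPM in the controls and 0.335, 0.317, 0.277 and 0.553 CPM in the BPA mice, the 1 gene of the 37 whose groups did not overlap with BPA higher, where 1.37% of all tested genes were of that kind. These are 4 to 24 reads per library, and the log2 fold change of 0.83 ± 0.32 (edgeR adjusted p 0.955) was 0.58 without BPA 4. Oas1a also matches its copy Oas1g at 97.6% over 1861 bases, so its counts are uncertain. Oas2 was at 0.469, 0.373, 0.420 and 0.191 CPM in the controls and 0.246, 0.448, 0.369 and 0.737 CPM in the BPA mice. Its estimate turned from 0.27 ± 0.36 to -0.059 without BPA 4. Oasl2, a relative of the synthases with ubiquitin-like domains, had 3.36 ± 0.437 CPM in the controls and 3.90 ± 0.625 CPM in the BPA mice (0.21 ± 0.14, or 0.12 without BPA 4). Oas1b, annotated as a polymorphic pseudogene, had 17 reads in all and was not tested.

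Rsad2 and Cmpk2 lie next to each other on chromosome 12 and act on nucleotides: Rsad2 (viperin) makes an antiviral chain terminator and Cmpk2 is a mitochondrial nucleotide kinase. Rsad2 was at 1.41, 1.63, 1.03 and 1.33 CPM in the controls and 1.36, 1.25, 1.41 and 2.33 CPM in the BPA mice. Its log2 fold change was 0.22 ± 0.22 and -0.020 without BPA 4, the only library of the 4 BPA libraries above the highest control. Cmpk2 was nearly level, at 15.8, 15.3, 15.7 and 16.0 CPM in the controls and 15.5, 14.7, 14.1 and 16.1 CPM in the BPA mice, with a fold of 0.963 (95% interval 0.881 to 1.05). Eif2ak2, the kinase PKR that stops translation on sensing double-stranded RNA, had a fold of 0.989 (0.874 to 1.12). Bst2 (tetherin), which holds budding virus at the cell surface, was at 0.936 ± 0.283 CPM in the controls and 0.808 ± 0.171 CPM in the BPA mice, with 1.36 CPM in control 2.

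**Figure D3:**
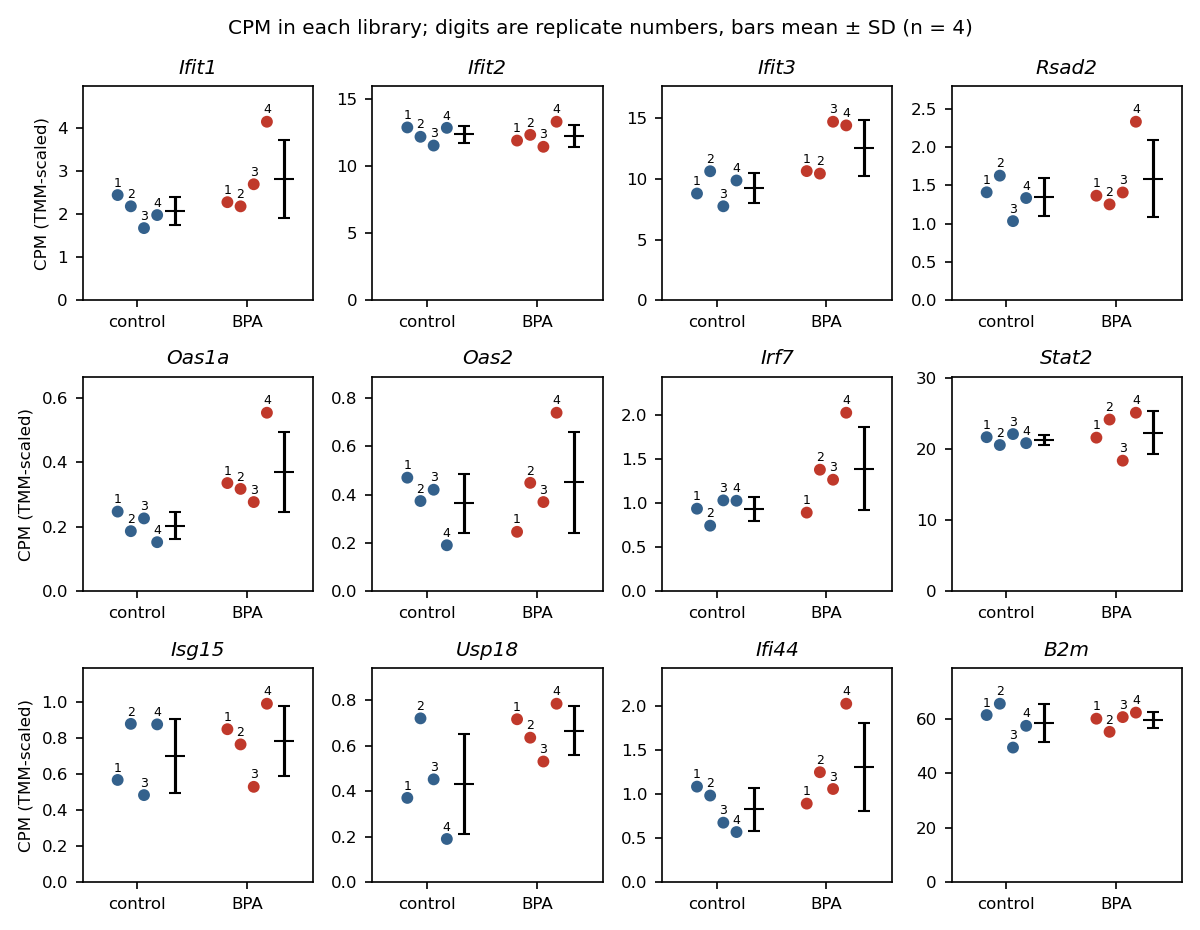
CPM of 12 interferon response genes in each library, with controls in blue and BPA mice in red; digits are replicate numbers and the black bars are mean ± SD of 4 libraries. BPA 4 is the highest point for every gene shown except Ifit3 and B2m. It is at least 1.4 times the next library for Ifit1, Rsad2, Oas1a, Oas2, Irf7 and Ifi44. The groups overlap for every gene shown except Oas1a.

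Of the transcription factors, IRF7 amplifies the production of interferon and is itself strongly induced. Irf7 (chromosome 7, 141262706 to 141266481) was at 0.939, 0.746, 1.03 and 1.03 CPM in the controls and 0.894, 1.38, 1.27 and 2.03 CPM in the BPA mice. BPA 2, 3 and 4 lay above every control and BPA 1 did not. The log2 fold change was 0.58 ± 0.24 (edgeR adjusted p 0.955), or 0.35 without BPA 4. Exons of Irf7 overlap those of Phrf1 on the other strand, and the sources used here do not say whether counting used the strand. Phrf1, at 52.1 to 65.04 CPM, had a log2 fold change of 0.13 ± 0.056. It was highest in BPA 2, followed by BPA 4 at 62.7 CPM, and the controls reached 61.5 CPM. The part of Phrf1 in the Irf7 counts was not tested.

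STAT2 and IRF9 are parts of the complex that binds the response element. Stat2 (chromosome 10, 128270559 to 128292849) was at 21.6, 20.5, 22.1 and 20.8 CPM in the controls and 21.6, 24.1, 18.3 and 25.1 CPM in the BPA mice, so BPA mice held both the lowest and the highest values. Its fold was 1.05 (95% interval 0.922 to 1.19). Irf9 was at 6.87, 7.54, 7.17 and 7.05 CPM in the controls and 6.71, 7.24, 7.63 and 7.40 CPM in the BPA mice, with a fold of 1.01 (0.904 to 1.13). Irf1, which interferon gamma induces strongly, followed another order: 5.30 ± 0.658 CPM in the controls and 7.18, 6.25, 5.65 and 5.07 CPM in the BPA mice, where BPA 4 was the lowest of its group (0.19 ± 0.12, or 0.096 without BPA 1 and 0.12 without control 1).

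Isg15 encodes a ubiquitin-like protein that is attached to other proteins, and Usp18 removes it and restrains the receptor. Isg15 was at 0.568, 0.879, 0.484 and 0.876 CPM in the controls and 0.850, 0.765, 0.530 and 0.991 CPM in the BPA mice (0.17 ± 0.26), with wide overlap. Usp18 was at 0.371, 0.719, 0.452 and 0.191 CPM in the controls and 0.716, 0.635, 0.530 and 0.784 CPM in the BPA mice (0.58 ± 0.31; edgeR adjusted p 0.955). Leaving out 1 library moved Isg15 to 0.034 without control 3, 0.039 without BPA 4, 0.069 without control 1 and 0.31 without control 2 or BPA 3. For Usp18 the estimates ran from 0.37 without control 4 to 0.94 without control 2. Ifi44 (chromosome 3, 151730922 to 151749960) was at 1.09, 0.986, 0.678 and 0.572 CPM in the controls and 0.894, 1.25, 1.06 and 2.03 CPM in the BPA mice (0.62 ± 0.28; edgeR adjusted p 0.955; 0.34 without BPA 4). Only BPA 2 and BPA 4 exceeded the highest control.

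The other regulators and induced genes had estimates between -0.074 and 0.28. Ifi27, a short membrane protein, was at 11.0, 16.1, 11.0 and 12.2 CPM in the controls and 11.7, 12.3, 12.2 and 13.0 CPM in the BPA mice. Control 2 alone set the sign of its estimate, which was -0.034 ± 0.11 with all libraries and 0.11 without control 2. Rtp4 had 1.64 ± 0.463 CPM in the controls and 2.01 ± 0.233 CPM in the BPA mice (0.28 ± 0.19, or 0.16 without control 3 and 0.48 without control 2). Parp14, an ADP-ribosyltransferase, had an estimate of 0.11 that became -0.0012 without BPA 4, and Xaf1, a partner of a cell death inhibitor, went from 0.15 to 0.0046. Trim25, a ubiquitin ligase that activates RIG-I, stayed below 0 in every fit that left out 1 library (-0.12 to -0.00084). Trim30a (0.027), Ifi35 (0.15, or 0.0025 without control 3, 0.062 without control 1 and 0.36 without control 2) and Lgals3bp, a secreted glycoprotein (-0.038), completed the group.

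Of the sensors of viral RNA, Ifih1 (MDA5) had 4.88 ± 0.672 CPM in the controls and 5.38 ± 0.294 CPM in the BPA mice (fold 1.10, 95% interval 0.934 to 1.29), and Ddx58 (RIG-I) 6.07 ± 0.357 and 5.95 ± 0.488 CPM (0.98, 0.856 to 1.12). Dhx58 (LGP2), their regulator, was highest in BPA 4 at 1.41 CPM and had a log2 fold change of 0.015 ± 0.22, or -0.18 without BPA 4. Zbp1, which senses Z-form nucleic acid, had 46 reads in all and was not tested, and 12 of these were in BPA 4.

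Of the 4 genes of class I antigen presentation, BPA 4 was highest for 1, Tap1. B2m, the light chain of class I molecules (chromosome 2, 122147686 to 122153083), was at 61.4, 65.6, 49.5 and 57.5 CPM in the controls and 60.1, 55.3, 60.7 and 62.3 CPM in the BPA mice. Its fold was 1.02, with a 95% interval of 0.909 to 1.14. The heavy chains H2-K1 and H2-D1 were highest in BPA 3, at 15.2 and 7.38 CPM, and in BPA 4 they were at 12.2 and 5.92 CPM, inside the control range of 10.5 to 13.7 CPM and of 5.42 to 6.53 CPM. Tap1, which carries peptides to these molecules, was at 1.89 CPM in BPA 4 and 1.84 CPM in control 2, against 1.01 to 1.45 CPM elsewhere. B2m had by far the highest level per length, 68.6 CPM per kilobase of exon, followed by Ifi27 at 8.47, Ifit3 at 6.25 and H2-K1 at 4.04, while Oas2 had 0.0914.

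The interferon-inducible GTPases attack vacuoles that hold microbes. Gbp3 was at 6.73 CPM in BPA 4 against 3.20 to 4.72 CPM in the other 7 libraries, and its estimate went from 0.19 ± 0.20 to -0.055 without BPA 4. Gbp2 was highest in control 2 and BPA 4, at 4.40 and 4.08 CPM, and Gbp7 likewise, at 10.6 and 10.4 CPM. Irgm1 (9.35 ± 0.783 and 9.86 ± 0.594 CPM in the controls and BPA mice) and Igtp (2.29 ± 0.440 and 2.32 ± 0.356 CPM) varied less between groups than within them.

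Leaving out single libraries showed how far the estimates depended on each. Without BPA 4, 20 of the 37 genes had a log2 fold change above 0 (49.3% of all tested genes), and the median was 0.0024. The number at an unadjusted p under 0.05 was 1, Ifit3, in place of 4 (3.92% of all tested genes). Estimates were smaller than with all libraries for 33 of the 37, against 7554 of 15429 over all tested genes. For the 21 genes highest in BPA 4 this was fixed in advance, since leaving out a gene's highest BPA library lowers its estimate. The same held for Ifih1, Trim25, Ifi27, B2m, Gbp2, Gbp7 and Eif2ak2, whose highest BPA library was also BPA 4. Other genes fall likewise where BPA 4 lies above the mean of its group. The count of 33 therefore restates where BPA 4 stood and is no separate result. Without control 2 the median was 0.16, with 32 of 37 genes above 0, and without control 3 it was 0.034, with 23. With control 2 and BPA 3, the libraries richest in choroid plexus RNA, both left out, the median was 0.16 with 31 of 37 above 0. The sign of the estimate held in all 8 such fits for 17 genes, 15 with BPA higher and 2 (Cmpk2 and Trim25) with BPA lower, and changed for 20. In none of them did a member pass at an adjusted p of 0.05 (lowest 0.629), with 1 to 5 members at an unadjusted p under 0.05. Over all genes, the number at that unadjusted p ran from 354 of 15545 (without BPA 2) to 1167 of 15527 (without control 3).

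**Figure D4:**
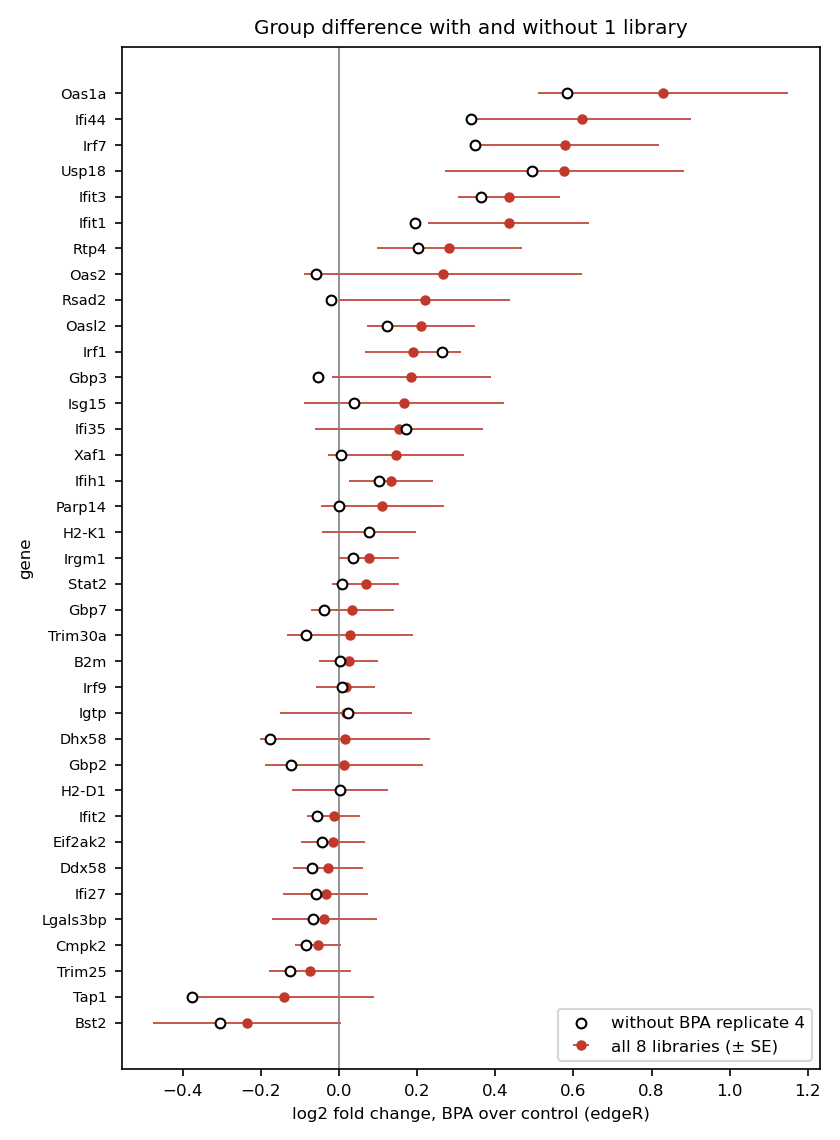
Log2 fold change of BPA over control for the 37 tested genes with all 8 libraries (red, ± SE) and with BPA 4 left out (open circles). The open circle lies to the left of the red point for 33 genes, including all 21 that were highest in BPA 4. Wherever BPA 4 was a gene's highest BPA library, this was fixed in advance. Oas1a, Usp18 and Ifit3 keep the largest estimates without BPA 4, at 0.58, 0.49 and 0.36.

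Genes with and without the promoter motif were set side by side. BPA 4 was highest for 9 of the 17 genes with the core of the element in the window and for 7 of the 14 genes that had a window without it. Median log2 fold changes were 0.068 and 0.047, and 0.0024 and 0.0059 without BPA 4. Irf7 and Ifi44, for which BPA 4 stood well above the next library, had a window without these letters. Looser forms of the core were not searched, so such windows are not shown to lack the element. Dhx58, Ifi27, Oas1b, Oas2, Parp14, Rtp4, Usp18 and Zbp1 were not matched.

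Markers of other cell types were read beside these values, and in BPA 4 the sums of the 9 lists lay inside the range of the other 7 libraries, except that of blood. The 14 microglial markers summed to 276 CPM in BPA 4, with 271 to 286 CPM in the controls and 267 to 291 CPM in the BPA group, and 6 of the 14 had a positive log2 fold change. The 14 endothelial and pericyte markers summed to 427.7 CPM in BPA 4, with 429 to 483 CPM in the controls and 427.6 to 473 CPM in the BPA group (9 of 14 positive). The 8 astrocyte markers summed to 1968 CPM in BPA 4, with 1890 to 2003 CPM in controls (4 of 8 positive). The 12 markers of other leukocytes, of which 4 could be tested, summed to 8.11 CPM in BPA 4, with 7.55 to 10.9 CPM in the controls and 7.47 to 13.6 CPM in the BPA group; Cd8a and Nkg7 had 0 reads in BPA 4. Choroid plexus markers summed to 225 CPM there, and 0 of the 9 had a positive log2 fold change.

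In control 2, the other library with high interferon genes, sums were the highest of all 8 for endothelial and pericyte (483 CPM), choroid plexus (3045 CPM) and ependymal (31.9 CPM) markers. They were second to BPA 3 for meningeal fibroblast markers (208 against 218 CPM) and leukocyte markers (10.9 against 13.6 CPM). Their part in the control 2 values was not tested. Of the 4 blood markers, Hbb-bs, Hba-a1 and Hba-a2 had 0 reads in every library, so the blood sum is that of Alas2 alone. Why they had 0 reads was not tested, and these counts do not show that the tissue was free of blood. Alas2 was highest in BPA 4, at 2.51 CPM against 1.83 to 2.42 CPM in the others. Its part in the BPA 4 values was not tested.

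**Figure D5:**
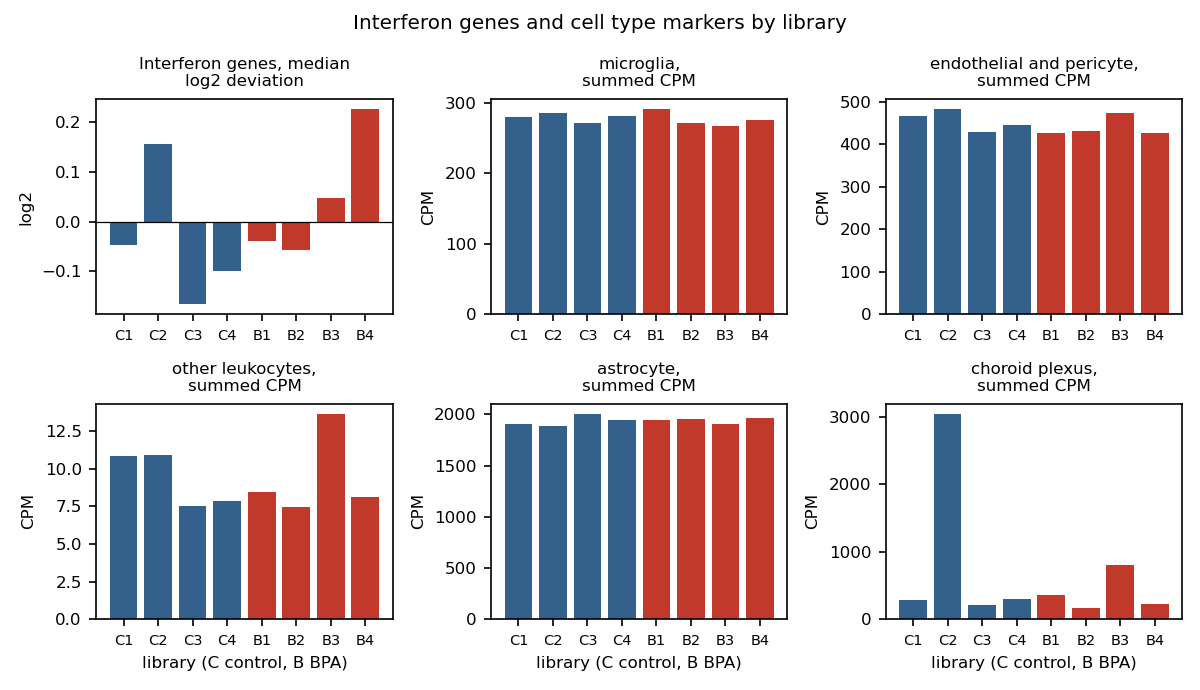
Median log2 deviation of the interferon genes from each gene's mean (first panel) and summed CPM of 5 marker lists in each library, controls in blue and BPA mice in red. The interferon genes are highest in BPA 4 and control 2, while the microglial sum stays between 267 and 291 CPM and the choroid plexus sum peaks in control 2 at 3045 CPM.

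Beyond the 39 genes, 76 further genes of interferon production, signalling and response were listed, of which 75 were in the table and 65 could be tested. None of the 65 passed edgeR's threshold at an adjusted p of 0.05, and DESeq2 called 0. At an unadjusted p under 0.05, edgeR gave 2 higher in BPA mice and 0 lower, where 2.22% and 2.3% of all tested genes were. DESeq2 also gave 2 at an unadjusted p under 0.05, against 3.02% of all genes. Of the 65, 37 had a positive and 28 a negative log2 fold change, against 50% positive over all tested genes, and their median was 0.020. Interferon transcripts themselves were hardly seen: Ifnb1 and Ifng had 0 reads and Ifna4 had 1 over all 8 libraries, where a count of 0 over their summed reads allows up to 0.00937 CPM (3 counts, counting error only). The receptor chains were present in both groups, Ifnar1 at 44.6 ± 1.89 CPM in the controls and 43.4 ± 1.46 CPM in the BPA mice (-0.038 ± 0.047) and Ifngr1 at 11.5 ± 0.869 and 12.4 ± 0.311 CPM (0.099 ± 0.068).

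The 2 further genes with the smallest p were Ifitm3, which blocks viral entry, and Ifit3b. Ifitm3 was at 7.09, 8.74, 6.17 and 6.40 CPM in the controls and 7.87, 8.40, 9.82 and 10.1 CPM in the BPA mice. It was thus high in BPA 3 and BPA 4, like Ifit3, and its log2 fold change was 0.34 ± 0.12 (edgeR adjusted p 0.955), or 0.29 without BPA 4. Irf8, a factor of microglial identity, was the 1 gene of the 65 whose groups did not overlap, at 2.44 to 2.82 CPM in the controls and 1.98 to 2.44 CPM in the BPA mice (-0.25 ± 0.12; edgeR adjusted p 0.955), with control 4 and BPA 1 both at 2.44 CPM after rounding, where 1.43% of all tested genes lay wholly lower in BPA mice; it was singled out after its values were seen. BPA 4 was the highest library for 13 of the 65 genes (20.0%), against 12.1% of all tested genes. Control 2 was highest for 23, against 15.2% of all tested genes. Relative to each gene's own mean, the median of the 65 stood at 0.098 in control 2, 0.056 in BPA 3 and 0.018 in BPA 4 on the log2 scale. It was below 0 in the other libraries.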

How the data were processed

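Polyadenylated RNA of the hippocampus was made into stranded libraries and sequenced, per the labels' protocols. The authors deposited whole-number counts of reads for each gene symbol, in 1 table whose first column is headed refGene per the file headers. The submitters' processing notes name mm10, featureCounts 1.5.0, STAR 2.3.0e and Trimmomatic 0.32, and also DESeq2 with no version. Columns were matched to samples by the library code in the title. The labels call the samples separate replicates but do not name litters; where mice share a litter, p-values measure only the spread between these animals. No 2 libraries of a group agreed within sampling noise (chi-square per degree of freedom 10.2 to 24.8 over 12 pairs), so none was counted once for 2.

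Genes were filtered with filterByExpr, which left 15434, scaled by TMM and tested with edgeR 4.0.16 (quasi-likelihood, 1 group term, two-sided, Benjamini-Hochberg) in R 4.3.3. SEs come from the test statistic. DESeq2 1.42.0 and limma-voom (limma 3.58.1) were alternatives. Deviations use log2 CPM with a prior count of 2. Positions, exon lengths and overlaps come from GENCODE M21 on mm10; exons of 8 members overlap a gene on the other strand. Beside Irf7 these are Dhx58, Irf1, Eif2ak2, Usp18, Ifi35, Tap1 and Gbp2. Transcripts were compared with BLAST 2.17.0 for stretches of at least 75 bases at 97% identity.

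The members and lists were chosen with earlier results of these data known. Values in every library are given for members with an unadjusted p under 0.05, groups that do not overlap, the 5 largest shares in 1 library or the 5 highest mean CPM, and for Isg15, Irf7, Irf9, Stat2, Ifit1 and Usp18; Rsad2 was added after its values were seen. Of other pathway genes, those with an unadjusted p under 0.05 and 3 genes set by name were to be given; of these 3, Ifnar1 and Ifngr1 are named and 1 is not reported here.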

Additional observations from a re-analysis of the deposited data

Results flagged for a closer look

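In 74 sets of 4 libraries (37 genes in 2 groups), 2 single values stood far from the rest of their group by Dixon's 95% criterion on the gap to the nearest library. Chance alone flags about 1 in 20 such sets. Rsad2 was at 2.33 CPM in BPA 4, with the nearest BPA library at 1.41 CPM (gap 0.856 of the group's range). Bst2 was at 1.36 CPM in control 2, with the nearest control at 0.815 CPM (gap 0.911 of the range).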

How the results depend on the processing

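Besides leaving out libraries, 10 alternatives were fixed for the fit and 1 was added after seeing the data (control 2 and BPA 3 both left out). No interferon gene passed the adjusted threshold under any of them. Over all genes, 7 passed with DESeq2 and 0 with each other setting. Leaving out 1 library moved the median log2 fold change of the 37 genes between 0.0024 (without BPA 4) and 0.16 (without control 2), and the number above 0 between 20 and 32. With the replicate block it was 0.071, with 26 genes above 0; same-numbered libraries did not deviate together (r of their deviations -0.12, -0.37, -0.30 and 0.070), so the numbers are not taken to pair the mice, and the calls did not change. With log2 library total as a covariate the median was 0.047 with 24 above 0 and 1 member, Ifit3, in place of 4 at an unadjusted p under 0.05; Ifi44 went to 0.17, Usp18 to 0.23, Isg15 to 0.31 and Ifit3b to 0.66. With libraries thinned to the smallest total the median was 0.070 with 24 of 36 above 0. Some estimates changed sign. With library total as a covariate, B2m was at -0.039, Oas2 at -0.18, Stat2 at -0.018 and Ifngr1 at -0.0095; thinned, Cmpk2 was at 0.056; without control 2 and BPA 3, Ifi27 was at 0.11 and Ifit2 at 0.0073. Over fits that left out 1 library, Ifit2 ran from -0.055 to 0.017, Irf9 from -0.0085 to 0.052, Ifi27 from -0.096 to 0.11, B2m from -0.047 to 0.085 and Oas2 from -0.059 to 0.47. The cause was not tested. Genes under 1 CPM, such as Oas1a, Oas2, Isg15 and Usp18, rest on few reads, and their intervals reach beyond 1.5-fold.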
